A study of Mus musculus with 8 samples.

Results

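The keratins of the inner root sheath and the companion layer of the hair follicle were followed in belly skin of mice that carry a transgene for human hurpin, together with trichohyalin, the matrix protein of the same sheath. The 8 genes were given by name: the type I keratins Krt25, Krt27 and Krt28, the type II keratins Krt71, Krt72 and Krt73, the companion layer keratin Krt75, and Tchh. Each had 1 probe set annotated to it alone, which made 8 probe sets of 45037 that were not array controls, and 8 genes of 18193 with a probe set of their own. Hurpin, also called SERPINB13, belongs to the serpins and blocks cathepsin L, a cysteine protease whose loss in mice disturbs the hair cycle. Females 7 and 84 and males 11 and 17 carried the transgene. Males 26 and 28 and female 29, which was measured on 2 arrays, were wildtype. All 7 animals were 8 months old. The promoter and the founder line behind the transgene, and the strain, were not given in the sources used here.

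The inner root sheath is a set of concentric layers that surrounds and moulds the growing hair shaft, and the companion layer lies between it and the outer root sheath. Type I and type II keratins pair to build filaments, and trichohyalin is modified by peptidylarginine deiminases and cross-linked by transglutaminases to fix those filaments. The layers are made while a follicle is growing and are lost when it regresses. In whole skin, fewer cells of a type and less RNA per cell cannot be told apart.

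The 8 genes were abundant in these samples, with mean log2 levels at or above the 88.8th percentile of the 27022 probe sets tested, so their defining transcripts were present. The arrays summed to 34785081 to 37857733 units of signal. Gapdh probe sets at the 3' and 5' ends of the transcript measure how far the labelled target reaches, and their ratio was 13.8, 1.45, 4.68 and 17.2 in transgenic 7, 11, 17 and 84, and between 0.927 and 1.41 on the 4 wildtype arrays. The same ratio for Actb differed less, at 4.33, 2.40, 3.33 and 5.87 in the transgenic animals and between 2.21 and 2.64 on the wildtype arrays. One animal of each group, transgenic 17 and wildtype 26, stood apart in every member, as described next. The group differences of the members are given with all 7 animals and without those 2, both males. Some values of other genes are given only without those 2.

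Krt25, a type I keratin found in all layers of the human inner root sheath, had signal intensities of 38855.4, 28428.2, 5429.4 and 34915.0 in transgenic 7, 11, 17 and 84. In wildtype 26 and 28 it had 299.5 and 37192.2, and the arrays of wildtype 29 gave 35774.0 and 34020.2. Transgenic 17 and wildtype 26 were low and the other animals of both groups overlapped. Krt27, a neighbouring type I keratin of the sheath, measured 37503.1, 20477.9, 4749.9 and 31287.8 in the transgenic animals, against 381.1, 30695.5, 31202.9 and 28593.7 on the arrays of wildtype 26, 28, 29 and 29 again. Krt28, the third type I keratin, measured 19545.1, 8619.7, 799.9 and 14865.0 in the transgenic animals, against 313.8, 17052.7, 17462.8 and 16470.6 on the wildtype arrays. For Krt27 and Krt28, as for Krt25, transgenic 7 was the highest of all animals and transgenic 11 stood below transgenic 7 and 84.

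Krt71, the type II keratin whose mutations give mice a wavy coat, measured 23526.5, 19562.8, 2805.1 and 22150.3 in transgenic 7, 11, 17 and 84, against 292.9 and 31749.7 in wildtype 26 and 28 and 29838.9 and 27557.7 on the arrays of wildtype 29. Krt72, which lies in the cuticle of the inner root sheath in human follicles, measured 9819.5, 3681.1, 492.8 and 5710.6 in the transgenic animals, against 83.9, 11176.0, 13016.9 and 12007.0 on the wildtype arrays. Krt73, another keratin of that cuticle in human follicles, measured 11122.5, 10505.0, 550.6 and 10309.4 in the transgenic animals, against 101.9, 15367.5, 16206.9 and 16111.3 on the wildtype arrays. In all 3 type II keratins wildtype 28 and 29 stood above every transgenic animal and wildtype 26 stood below every one.

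Tchh, which encodes trichohyalin, measured 30010.1, 20897.6, 9880.2 and 25581.2 in transgenic 7, 11, 17 and 84, against 1056.0 and 25745.5 in wildtype 26 and 28 and 26508.1 and 30111.0 on the arrays of wildtype 29. The groups overlapped for Tchh with transgenic 17 and wildtype 26 included or left out. Krt75, the keratin of the companion layer, measured 2490.5, 3077.8, 447.4 and 2447.2 in the transgenic animals, against 575.9, 8961.4, 9768.0 and 9655.3 on the wildtype arrays. Krt75 was the one member in which wildtype 26 was not the lowest of the 7 animals, since transgenic 17 lay below it.

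**Figure D1:**
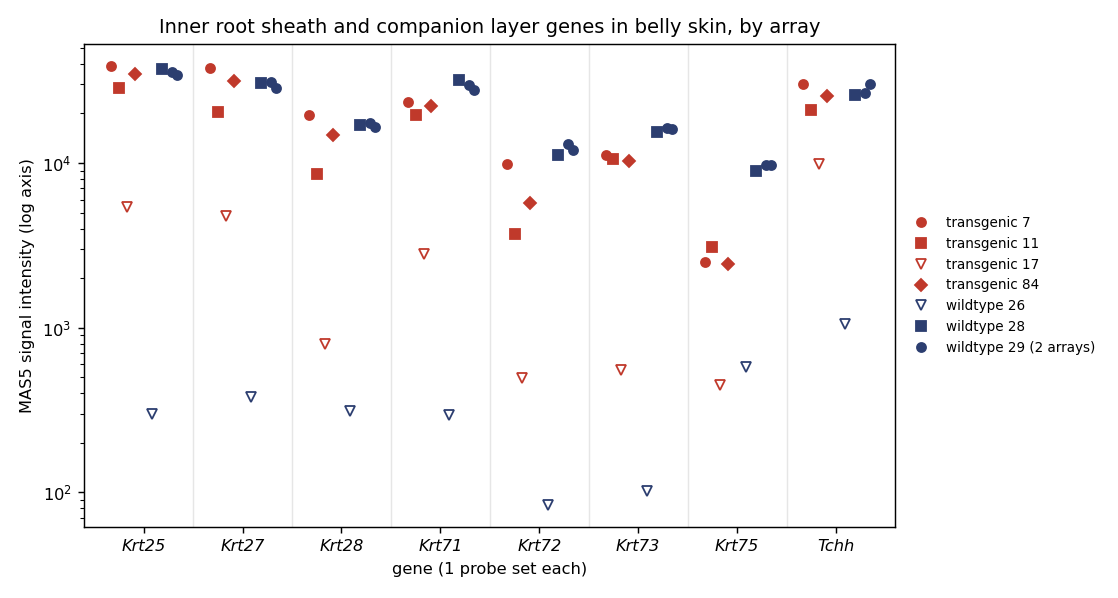
Signal intensity (log axis) of the 8 genes on each of the 8 arrays, with transgenic animals in red to the left of wildtype animals in blue for each gene, and open triangles for transgenic 17 and wildtype 26. The 2 open triangles are the lowest points of every gene, and for Krt75 the other transgenic animals (2447.2 to 3077.8) lie below the other wildtype arrays (8961.4 to 9768.0).

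Promoter windows of 4 members are shown because these genes differ in how they moved between animals: Krt25, which spanned the widest range between transgenic 17 and wildtype 26, Krt71 and Krt73, type II keratins that lay lower in 3 transgenic than in 2 wildtype animals, and Krt75, which departed from the other members. Each is the 250 bases before the RefSeq gene start (GRCm38.p6), read 5′ to 3′ on the minus strand, which is the strand of each of the 4 genes. Capitals mark the TATA box TATAAA, the GATA motif AGATAA and the homeodomain motif TAATTA on either strand. The windows are chr11:99322952-99323201 for Krt25, chr15:101743098-101743347 for Krt71, chr15:101802361-101802610 for Krt73 and chr15:101573905-101574154 for Krt75.
Krt25: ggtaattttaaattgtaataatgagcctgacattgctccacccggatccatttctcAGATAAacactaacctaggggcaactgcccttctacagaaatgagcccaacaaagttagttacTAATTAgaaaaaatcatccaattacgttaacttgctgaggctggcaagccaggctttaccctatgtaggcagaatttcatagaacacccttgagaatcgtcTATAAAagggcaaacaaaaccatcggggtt
Krt71: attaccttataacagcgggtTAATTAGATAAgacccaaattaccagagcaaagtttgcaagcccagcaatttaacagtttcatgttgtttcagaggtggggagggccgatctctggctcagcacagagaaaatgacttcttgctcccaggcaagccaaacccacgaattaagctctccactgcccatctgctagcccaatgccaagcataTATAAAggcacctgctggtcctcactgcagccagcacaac
Krt73: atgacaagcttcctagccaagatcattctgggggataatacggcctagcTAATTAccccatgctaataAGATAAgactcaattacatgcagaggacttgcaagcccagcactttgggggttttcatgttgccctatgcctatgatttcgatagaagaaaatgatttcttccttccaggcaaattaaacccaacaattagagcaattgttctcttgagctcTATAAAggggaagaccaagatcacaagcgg
Krt75: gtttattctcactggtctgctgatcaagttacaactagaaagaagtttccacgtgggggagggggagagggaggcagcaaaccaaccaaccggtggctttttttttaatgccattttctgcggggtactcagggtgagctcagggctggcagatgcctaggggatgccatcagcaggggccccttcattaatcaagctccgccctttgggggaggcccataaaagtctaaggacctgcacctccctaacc

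All 8 members had such a window. TATAAA was present on either strand in 6 of the 8 members and in 12.4% of 32851 RefSeq windows of the same length, and on the gene's own strand within 50 bases of the start in 5 members (Krt25, Krt27, Krt28, Krt71 and Krt73) and 2.63% of windows. AGATAA was present in 5 members (Krt25, Krt27, Krt71, Krt73 and Tchh) and 9.99% of windows. TAATTA, which reads the same on both strands, was present in 4 (Krt25, Krt28, Krt71 and Krt73) and 4.84% of windows, and in Krt71 its last base is the first base of the GATA motif. The TCF/LEF motif CTTTGAA was present in Tchh alone among the members and in 4.46% of windows, and 1 of its matches overlaps the GATA motif. Krt75 had none of these 4 strings in its window. Krt72, whose window is not shown, also lay lower in 3 transgenic than in 2 wildtype animals. Of the 4 strings it held only TATAAA, on the opposite strand, 203 bases upstream of the start. Only exact matches were counted. Related runs near the start, such as cataaaa in Krt75 and tatttaa in Krt72, were therefore not counted as a TATA box. The longest run of bases shared by the windows of any pair of members was 14, ttgcaagcccagca in Krt71 and Krt73, which stand on chromosome 15 with Krt72 between them.

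The drop in wildtype 26 differed in size among the members. Relative to the lowest array of the other wildtype animals, wildtype 26 was 151-fold lower for Krt73, 133-fold for Krt72, 114-fold for Krt25, 94.1-fold for Krt71, 75.03-fold for Krt27, 52.5-fold for Krt28, 24.4-fold for Tchh and 15.6-fold for Krt75. The drop in transgenic 17 was smaller for every member and fell in another order. Relative to the lowest of the other transgenic animals, transgenic 17 was 18.7-fold lower for Krt73, 10.8-fold for Krt28, 7.47-fold for Krt72, 6.97-fold for Krt71, 5.47-fold for Krt75, 5.24-fold for Krt25, 4.31-fold for Krt27 and 2.12-fold for Tchh. Krt73 dropped farthest in both animals. Tchh, the matrix protein of the sheath, dropped least in transgenic 17.

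Between these low animals, transgenic 17 stood above wildtype 26 in 7 of 8 members. The ratio of transgenic 17 to wildtype 26 was 18.1 for Krt25, 12.5 for Krt27, 9.58 for Krt71, 9.36 for Tchh, 5.87 for Krt72, 5.40 for Krt73 and 2.55 for Krt28. It was 0.777 for Krt75. With 1 animal on each side these ratios have no replicate check. The arrays of wildtype 29 differed by -0.13 to 0.18 on the log2 scale over the 8 members, which is the spread between arrays of 1 animal. Animals of both sexes were among those with high levels, and both low animals were male.

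How alike the members were over the 7 animals was measured as the root mean square difference between their log2 profiles, each centred on its own mean. The smallest value among the 28 pairs was 0.23, for Krt25 and Krt27, and the next were 0.296 for Krt27 with Krt71 and 0.297 for Krt25 with Krt71. Over the 21 pairs without Krt75 the median was 0.65 and the highest 1.21, for Krt73 with Tchh. The 7 pairs with Krt75 ran from 1.17 to 1.59. From the mean profile of the 8 members, in which each was itself included, Krt71 differed least (0.26) and Krt75 most (1.12).

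The genes outside the list whose profiles lay nearest to the mean of the members were Ly6g6d (0.20), Krt81 (0.30), Krtap17-1 (0.36), Prr9 (0.37), Lrrc15 (0.38), Krt83 (0.39), Ly6g6g (0.40), Krtap12-1 (0.42), Krtap10-4 (0.44) and Calhm4 (0.44), as root mean square differences over 7 animals. Krt81 and Krt83 are type II keratins of the hair shaft, and Krtap17-1, Krtap12-1 and Krtap10-4 are keratin-associated proteins. Ly6g6d, the nearest, measured 2988.8, 1302.6, 214.1 and 2160.8 in transgenic 7, 11, 17 and 84, against 29.9 and 2556.5 in wildtype 26 and 28 and 3163.6 and 2905.7 on the arrays of wildtype 29. The same 2 animals were its lowest.

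**Figure D2:**
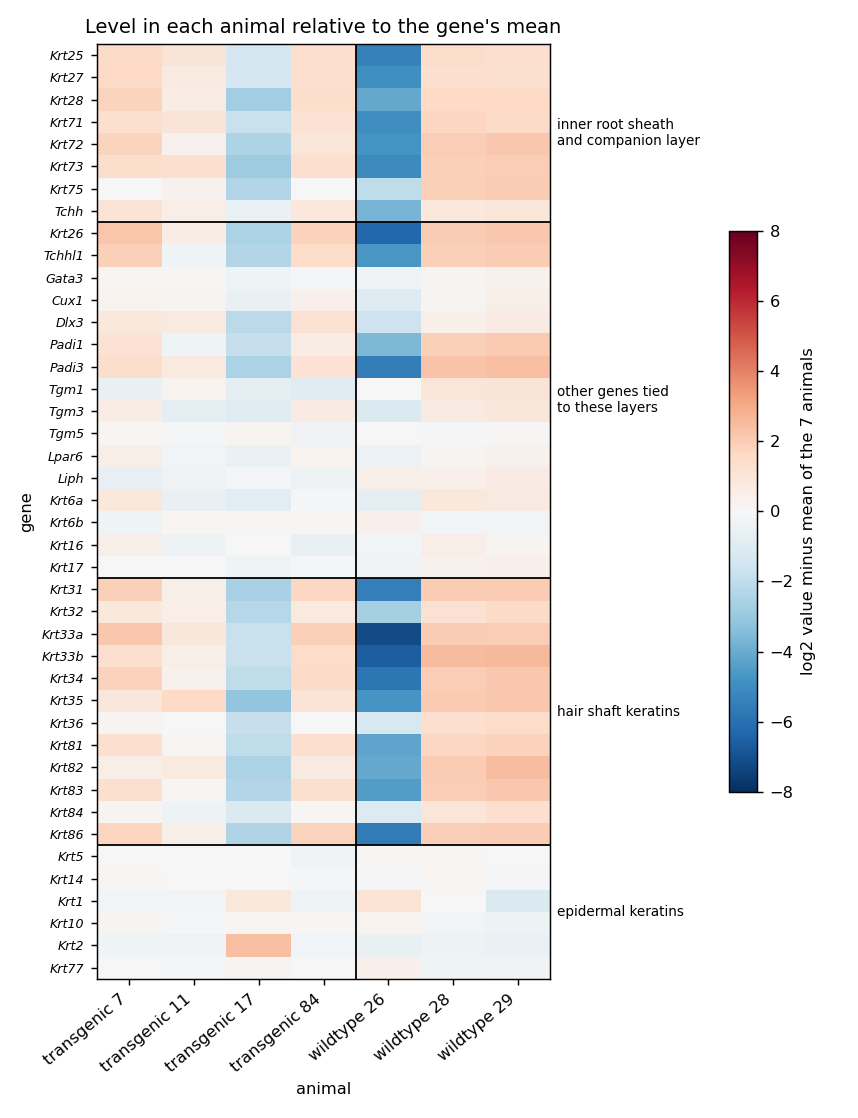
Log2 level of each gene in each of the 7 animals (columns, transgenic on the left) minus the mean of that gene over the animals, for the 8 members, other genes tied to their layers, hair shaft keratins and epidermal keratins (rows). Wildtype 26 and transgenic 17 are blue over the members and the 12 hair shaft keratins, and the epidermal keratins show no such pair of columns.

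Transgenic and wildtype skin were then compared, to ask whether transcripts of these layers differ in mice that carry hurpin. With all 7 animals, 0 of the 8 members passed limma at an adjusted p under 0.05, against 4 probe sets (0.0148%) called over the whole array. At an unadjusted limma p under 0.05 there were 0 members and 11.7% of all probe sets tested. Groups overlapped in all 8 members, where 11.3% of all probe sets tested had no overlap. The log2 difference, transgenic minus wildtype, was above 0 in 7 members, from 0.39 for Krt72 to 1.52 for Krt25, and was -1.11 for Krt75. Over all probe sets tested 50.2% lay above 0.

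The spread between wildtype animals was larger than each of these differences. On the log2 scale Krt25 averaged 14.39 ± 1.33 over the 4 transgenic animals and 12.87 ± 3.93 over the 3 wildtype animals (mean ± SD), with a 95% confidence interval of the difference from -2.02 to 5.06 (limma adjusted p = 0.725). Krt75 averaged 10.76 ± 1.27 over the 4 transgenic animals and 11.87 ± 2.29 over the 3 wildtype animals, with an interval from -3.42 to 1.20 (limma adjusted p = 0.691). The limma adjusted p ran from 0.691 to 0.948 over the 8 members. The median difference was 0.85 over the members and 0.0012 over all probe sets tested, and without wildtype 26 all 7 positive differences turned negative (-1.88 to -0.43).

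Without transgenic 17 and wildtype 26, Krt75 was lower in transgenic skin, and the 3 type I keratins and Tchh gave log2 differences of -0.32 to -0.069 with intervals that include 0. Krt75 averaged 11.39 ± 0.18 over 3 transgenic animals and 13.19 ± 0.08 over 2 wildtype animals (mean ± SD), a log2 difference of -1.80 (SE 0.156, limma adjusted p = 0.0130), or 3.49-fold lower. It was 1 of 11 probe sets called (0.0407%) and the 1 probe set called lower (0.0037%) of 27022. All 8 members lay below 0, from -0.997 to -0.069 beside Krt75, against 48.5% of all probe sets. The animals left out are those with the lowest levels of the members themselves, so this value describes the 5 animals with high levels and is no independent sample. Another 14 settings added after seeing the data bear on it: it was called under all 9 with other processing (adjusted p from 0.0102 to 0.0190). With 1 more animal left out it was called without transgenic 11 (adjusted p = 0.000726) but not without transgenic 7 (0.0782), transgenic 84 (0.116), wildtype 28 (0.243) or wildtype 29 (0.275), at log2 differences from -1.91 to -1.74. Where 1 wildtype animal remains, limma assumes that it varies as the transgenic animals do.

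The Gapdh ratios differed between the transgenic animals and are set here beside their Krt75 levels. Transgenic 11, with a Gapdh 3' to 5' ratio of 1.45, lay 2.91-fold below the lowest array of wildtype 28 and 29. Transgenic 7 and 84, with ratios of 13.8 and 17.2, lay 3.60-fold and 3.66-fold below it, and transgenic 17, with a ratio of 4.68, lay 20.03-fold below it. The part of target quality in the Krt75 difference was not tested.

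Krt72, Krt73 and Krt71 were also lower in each of the 3 transgenic animals than in both wildtype animals, without passing the adjusted threshold. The log2 differences were -0.997 for Krt72 (SE 0.359, limma adjusted p = 0.325), -0.57 for Krt73 (SE 0.122, adjusted p = 0.242) and -0.48 for Krt71 (SE 0.136, adjusted p = 0.295). Together with Krt75 these made 4 of 8 members with no overlap in the lower direction, where 16.3% of all probe sets tested had none. For the other members the interval of the difference included 0, from -0.46 to 0.28 for Krt25, -0.63 to 0.50 for Krt27, -1.05 to 0.40 for Krt28 and -0.50 to 0.31 for Tchh.

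**Figure D3:**
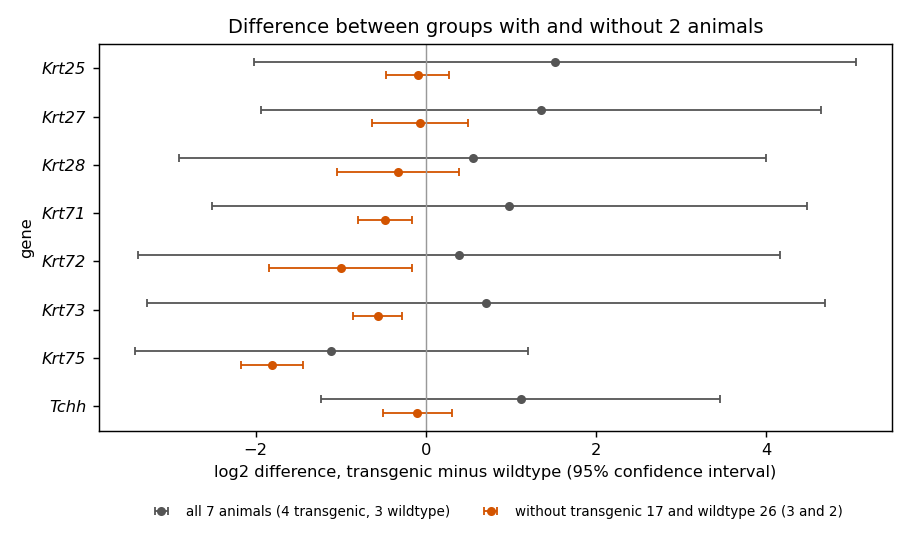
Log2 difference, transgenic minus wildtype, with 95% confidence intervals from limma for each gene, with all 7 animals (grey) and without transgenic 17 and wildtype 26 (orange). The grey intervals all include 0, and the orange interval of Krt75 (-2.17 to -1.44) lies farthest from it.

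Krt75 was then set against each other member within the same animal, which needs no animal left out and in which the scaling of an array cancels. This comparison was chosen after the values had been seen. The log2 value of Krt75 minus that of Krt71 was -3.23, -2.66, -2.59 and -3.17 in transgenic 7, 11, 17 and 84, against 0.93, -1.82 and -1.56 in wildtype 26, 28 and 29. All 4 transgenic animals lay below all 3 wildtype animals, although the groups overlapped in Krt75 and in Krt71 alone. Such a separation was not particular to Krt75. Krt71, Krt72 and Krt73, each minus Krt25, also lay lower in all 4 transgenic animals than in all 3 wildtype animals. The level of Krt75 minus a partner in 1 animal depends on both probe sets and has no meaning of its own. Only its difference between groups is used.

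That difference was -2.09 with Krt71 as the partner, -2.63 with Krt25, -2.47 with Krt27 and -2.22 with Tchh, each without overlap (exact permutation test, 2-sided p = 0.0571 each, the smallest that 4 against 3 animals allow, and 0.100 adjusted over the 7 partners). No overlap in the lower direction was found for 0.111% of all other probe sets set against Krt71, 0.396% against Krt25, 0.363% against Krt27 and 1.21% against Tchh. With Krt28, Krt73 and Krt72 as partners the groups overlapped and the differences were -1.66, -1.82 and -1.50 (exact permutation p = 0.114, 0.171 and 0.343), where 0.0296%, 0.0185% and 0.0111% of all other probe sets had no overlap. A probe set without the drop in transgenic 17 and wildtype 26 tends to overlap in such a comparison, because the drop of the partner enters it. None of these shares therefore shows how rare the Krt75 result is among genes with that drop. All 7 differences of Krt75 were below 0, and they share the values of Krt75. Without wildtype 26 they were smaller, at -1.22 with Krt71, -1.68 with Krt25, -1.71 with Krt27, -1.998 with Tchh, -1.10 with Krt28, -0.81 with Krt73 and -0.55 with Krt72.

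Other genes tied to the inner root sheath, the companion layer or their cross-linking were read from a list of 17, of which 16 were measured. With all 7 animals limma called 0 of the 16 in either direction, and 5 lay above 0 (median log2 difference -0.081). The 4 with the highest mean log2 level were Krt17, Krt6a, Krt26 and Gata3. Krt26, a type I keratin of the sheath that lies between Krt25 and Krt27 on chromosome 11, measured 15219.5, 4733.0, 537.7 and 11447.8 in transgenic 7, 11, 17 and 84, against 19.1, 13144.3, 15030.0 and 13143.6 on the wildtype arrays. It had the same 2 low animals as the members.

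Krt17, a keratin of the outer root sheath and of stressed epidermis, ranged from 7323.9 to 9479.7 in transgenic animals and from 7868.3 to 12490.6 on wildtype arrays. Krt6a, which is found in the companion layer, had a log2 difference of -0.42 with all animals and -0.70 without transgenic 17 and wildtype 26 (limma adjusted p = 0.425). Gata3, a transcription factor of the inner root sheath, gave -0.13 and -0.21. Padi3 and Padi1, deiminases that act on trichohyalin, were picked here for that role after their values had been seen. They gave 0.50 and -0.23 with all 7 animals. Without transgenic 17 and wildtype 26 they gave -1.21 and -1.51 (limma adjusted p = 0.133 and 0.269). The transglutaminases of the list, Tgm1, Tgm3 and Tgm5, gave -1.22, -0.29 and -0.027 with all 7 animals. Without transgenic 17 and wildtype 26 they gave -1.45, -0.66 and -0.10. Without those animals limma called 0 of the 16, and the median was -0.54. In that comparison 14 of the 16 lay below 0, and Dlx3 (0.40) and Krt6b (0.16) lay above it.

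The hair shaft keratins, made by the neighbouring layers of the same follicle, showed the same low animals. Transgenic 17 and wildtype 26 were the 2 lowest animals in 12 of 12 shaft keratins, as in 8 of 8 members, and in 0 of 6 epidermal keratins. Wildtype 26 was the lowest in 10 of the 12 shaft keratins. Transgenic 17 lay below it in Krt36 (109.9 against 167.4) and Krt84 (119.5 against 123.1), as in Krt75. The summed intensity of the shaft keratins ran from 9326 to 131541 in transgenic animals and from 1464 to 183990 on wildtype arrays. Krt33a, one of the 4 most abundant by mean log2 level, measured 29827.8, 12299.9, 1917.1 and 25048.5 in the transgenic animals, against 25.2, 27580.0, 28086.0 and 24208.5 on the wildtype arrays. With all 7 animals the median log2 difference over the shaft keratins was 0.35, with 8 of 12 above 0. Without transgenic 17 and wildtype 26 it was -0.88, beside -0.40 over the members and 0.014 over all probe sets. Single shaft keratins then ran from -1.58 for Krt82 to -0.36 for Krt33a, beside -1.80 for Krt75. Limma called 0 of the 12 (lowest adjusted p = 0.0638, for Krt82). In 11 of the 12 the 3 transgenic animals lay below both wildtype animals, as did 16.3% of all probe sets tested.

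Markers of other compartments moved with this 5-animal comparison to different extents. All 5 melanocyte genes lay below 0, with a median of -1.23 and a summed intensity of 3255 to 6730 in transgenic animals and 8471 to 12396 on wildtype arrays. Anagen matrix regulators had a median of -0.43 over 7 genes, and summed to 5931 to 7927 in transgenic animals and 8576 to 10484 on wildtype arrays. Epidermal keratins had a median of 0.31 over 5 genes, since Krt2 did not pass the filter in this comparison. All 6 summed to 86497 to 98922 in transgenic animals and 73749 to 86154 on wildtype arrays. Dermal fibroblast genes had a median of 0.20. Adipocyte genes had a median of 0.52, with 0 of 5 below 0, and summed to 48113 to 66725 in transgenic animals and 40070 to 44870 on wildtype arrays. Lep, the adipocyte hormone leptin, had a log2 difference of 2.65 and is named as the highest of its list after its value had been seen. Immune genes had a median of 0.61, and skeletal muscle genes one of 0.32 with 0 of 6 below 0. With all 7 animals the medians were -0.85 for melanocyte genes, 0.023 for anagen matrix regulators and 0.081 for the 6 epidermal keratins, Krt2 included. They were 0.064 for dermal fibroblast, 0.49 for adipocyte, 0.29 for immune and 0.24 for skeletal muscle genes. Limma called 0 genes of these lists, and none of their markers was at 0. Their part in the lower Krt75 level was not tested.

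**Figure D4:**
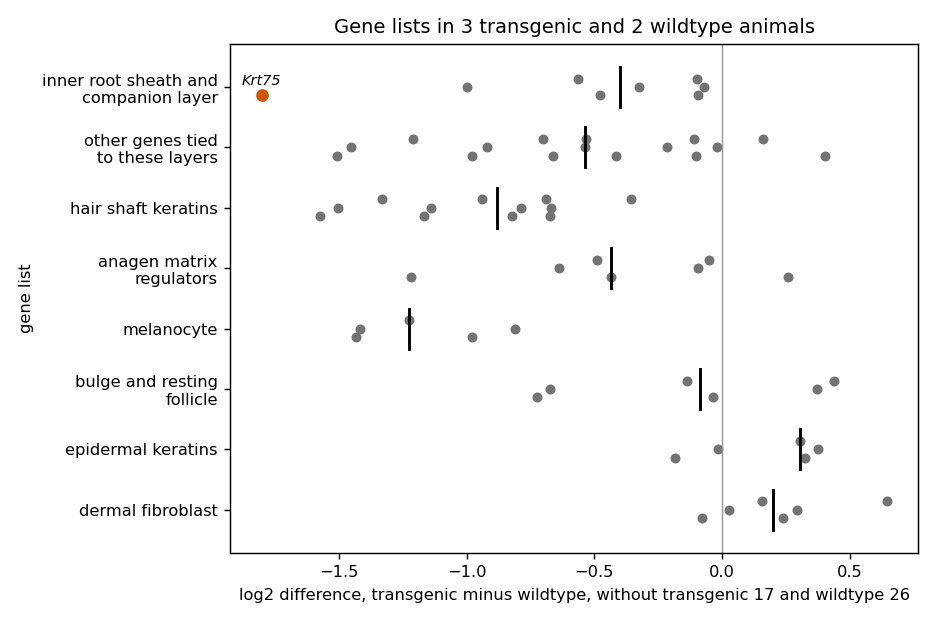
Log2 difference, transgenic minus wildtype, without transgenic 17 and wildtype 26, for the genes of 8 lists (points, 1 probe set per gene) with the median of each list as a black bar. Krt75 (orange, -1.80) is the 1 gene called, and 4 lists have lower medians than the members (-0.40): melanocyte (-1.23), hair shaft keratins (-0.88), other sheath genes (-0.54) and anagen matrix regulators (-0.43).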

How the data were processed

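Total RNA of belly skin had been labelled with the one-cycle protocol and hybridised to Affymetrix mouse arrays, per the labels. The authors deposited 1 signal intensity per probe set and array, not log-transformed, from MAS5, per the submitters' processing notes. The mean of each array without its lowest and highest 2% of values was 500.003. Gene symbols came from the array annotation. Genes were placed through RefSeq (GRCm38.p6), the source of the promoter windows.

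A pseudocount of 21.8 (the 20th percentile of the table) was added before log2 was taken, so that fold changes of dim probe sets are understated. The 2 arrays of wildtype 29 were averaged. Probe sets with a mean log2 under the 40th percentile (6.45) were left out, which kept 27022 of 45037 and all 8 members. Group differences were tested in R 4.3.3 by limma 3.58.1 (empirical Bayes with trend, 2-sided, Benjamini-Hochberg over all 27022), checked on simulated data. Where a listed gene had several probe sets, the brightest was used, and up to 4 genes a list were named by mean log2 level. The 10 nearest profiles were named by the stated distance. The members and lists were chosen with earlier results of these data known. Arrays give no detection call here, and their number limits the precision. Figures used Python 3.11.15 with matplotlib 3.10.9.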

Additional observations from a re-analysis of the deposited data

Results flagged for a closer look

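In the transgenic group, transgenic 17 lay far below the other 3 animals in 4 of the 8 members tested, by Dixon's criterion for a single distant value, which chance meets in about 5% of groups. Its log2 levels were 12.41 for Krt25 (next transgenic animal 14.80), 11.465 for Krt71 (14.26), 9.16 for Krt73 (13.33) and 8.87 for Krt75 (11.27). The 4 genes were read from the same arrays, so they are not separate occurrences. The criterion was not applied to the wildtype group of 3 animals, in which wildtype 26 lay lower still in Krt25, Krt71 and Krt73.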

How the results depend on the processing

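The number of probe sets called over the whole array was 4 with all animals, 10 with a pseudocount of 87.2, 2 with a 60th percentile filter, 11 with sex as a covariate, 9 with the second array of wildtype 29 only and 11 without wildtype 26 and transgenic 17. With 1 animal left out it ran from 0 (without wildtype 28; the limma count at an unadjusted p under 0.05 was 1621) to 269 (without transgenic 11), with 12 without transgenic 17, 11 without transgenic 84 and 2 without wildtype 26. The number of members called was 0 under 16 of 17 alternatives and 1 without wildtype 26 and transgenic 17, and 0 to 0 with 1 animal left out. The median difference over the members ran from -1.27 to 1.91 with 1 animal left out.

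Leaving out wildtype 26 and transgenic 17 turned the log2 differences of Krt25 (-0.092), Krt27 (-0.069), Krt28 (-0.32), Krt71 (-0.48), Krt72 (-0.997), Krt73 (-0.57) and Tchh (-0.10), and sex as a covariate turned that of Krt72 (-0.089). With 1 animal left out the differences ran from -0.75 to 2.68 for Krt25, -0.72 to 2.41 for Krt27, -1.34 to 1.56 for Krt28, -1.21 to 2.12 for Krt71, -1.88 to 1.57 for Krt72, -1.62 to 1.90 for Krt73 and -0.43 to 1.92 for Tchh. The low end came without wildtype 26 in each, and Krt72 also turned without transgenic 7 (-0.15). Krt75 stayed below 0 under all 17 (-2.43 to -0.42), and so did Krt75 minus each other member (-3.15 to -0.55). Among the 17, dropping the level filter or setting it at the 60th percentile cannot change a difference, only its adjusted p. No paired analysis was possible because the groups share no animal numbers.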
